A study of Mus musculus with 21 samples.

Results

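The comparison described here set FVF- cells of the mouse embryonic pancreas at E15.5 against FVF- cells at E12.5 (embryonic days). Its members were the 5 arrays titled as FVF-negative pancreas of those days, 3 at E15.5 and 2 at E12.5, of 21 arrays in the series. FVF is a fusion of the forkhead transcription factor Foxa2 with the fluorescent protein Venus. Pancreata were sorted by the fluorescence of the fusion, and FVF- cells are those without it. All embryos had a mixed C57-Bl6/SV129/CD1 background, and the sources used here do not give the copy number of the fusion allele. Total RNA was measured on Affymetrix arrays. The FVF+ arrays of E15.5 (3) and E12.5 (3) and the FVF- arrays of E14.5 (3) and E13.5 (2), from the same tissue and background, were used to place the values. The design text speaks of biological replicates and does not say how many embryos or litters each holds, so the p-values reflect the spread of these samples, which may be technical, and few arrays mean low precision.

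Foxa2 marks the endoderm, the germ layer of the pancreatic epithelium, and the cells around it are of other origin. Mesenchyme is the main tissue around the pancreatic buds; it secretes growth factors that the epithelium needs, lays down extracellular matrix and later gives rise to stellate cells, pericytes and fibroblasts. Vessels, blood cells, resident macrophages, neural crest derivatives and the mesothelium that covers the organ belong to the same compartment. Between the 2 days the epithelium branches and its acinar and endocrine cells differentiate, blood formation passes from the yolk sac to the fetal liver, and the gland acquires a capsule and septa.

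The sort was checked against markers of each cell type. All 7 mesenchymal markers (Pdgfra, Col1a1, Col3a1, Tcf21, Prrx1, Lum and Dcn), all 4 endothelial, all 5 red cell, all 4 macrophage, all 3 mesothelial, all 3 smooth muscle and all 3 measured neural markers had higher means in FVF- than in FVF+ cells on both days. Of 3 mast cell markers, Cpa3 was higher in FVF- on both days, whereas Kit was higher in FVF+. The third, Ms4a2, averaged 5.91 in FVF- and 5.67 in FVF+ cells at E15.5, and 5.55 and 5.64 at E12.5. Among the neural markers the E15.5 gap was wide for Stmn2 (11.21 against 7.23) and narrow for Sox10 (9.10 against 8.74) and Elavl4 (7.87 against 7.80). It was also narrow for the macrophage marker C1qa (10.06 against 9.67) and the red cell markers Klf1 (7.96 against 7.52) and Gata1 (7.56 against 7.03). The smooth muscle marker Myh11 had 8.41 against 7.87. Klf1, Gata1 and Myh11 averaged below the lowest array median of 8.68 in both sorts. None of 8 epithelial markers was higher in FVF- on both days. Among them Cpa1 had high means in FVF- cells too. It averaged 13.68 in FVF- and 14.89 in FVF+ cells at E15.5, and 11.88 and 14.75 at E12.5. Foxa2 itself had log2 signals of 7.98, 8.56 and 8.24 in the FVF- arrays of E15.5 and of 8.11 and 8.26 in those of E12.5, and the difference of 0.08 ± 0.20 was not called (adjusted p = 0.85). Its mean in FVF+ cells was 11.09 at E15.5 and 11.19 at E12.5. Its relative Foxa1 differed by 0.07 ± 0.11 and was not called, and Foxa3 had 7.82, 7.85 and 7.44 at E15.5 and 7.08 and 7.07 at E12.5 and rose by 0.63 ± 0.18 (adjusted p = 0.021), a call lost with any array but E15.5 replicate 3 left out. The 3 E15.5 arrays correlated with each other at 0.993 to 0.994 over genes, the 2 E12.5 arrays at 0.996, and arrays of different days at 0.973 to 0.978.

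Between E12.5 and E15.5, FVF- cells gained transcripts of extracellular matrix, vessels, leukocytes and digestive enzymes, and lost embryonic globins, oncofetal regulators and part of the early mesenchymal transcription factor set. In RNA from a mixed population, more cells of a type and more RNA per cell cannot be told apart, for every group below. The numbers in the arrays' labels increase with the day, the sources used here do not give their meaning, and day and that order cannot be told apart. Levels are log2 RMA signals throughout, and differences are log2 units, E15.5 minus E12.5, with the moderated standard error (SE). A gene was called at a limma adjusted p under 0.05 over 19296 genes. Of these, 3945 were called (20.4%): 2073 rose (10.7%) and 1872 fell (9.7%). The counts of each gene list below are to be read beside these shares. The split into rises and falls depended on scaling: 1610 rose and 2768 fell when each array was centred on its median, 2008 and 2229 after quantile normalization, and 2516 and 1395 after cyclic loess. The E12.5 group had 2 arrays, and without replicate 1 or replicate 2 of it 1995 and 2043 genes were called. Large changes were mostly rises, with 488 genes up at least 2-fold (2.53%) and 153 down (0.793%). The 3 E15.5 arrays did not overlap the 2 E12.5 arrays in 50.4% of all genes. The median difference of all genes was -0.005. The files hold no detection calls, and Aspn, Pnliprp1 and Agtr2 at E12.5 and Hbb-bh1 at E15.5 lay below the lowest array median of 8.68, so folds against them are folds of signals that may be near background. Other genes named below, among them Lin28b, Ccr1, Ccr2, C1s1, H2-Aa and Bmp2, lay below that median in every FVF- array of both days.

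The estimate of the spread came from all 21 arrays. Marker levels were compared for the arrays of E12.5 and E15.5 only, where 1 FVF+ array stood apart from its group. Over all genes the lowest correlations within a group were those of FVF- E14.5 (0.985), FVF+ E14.5 (0.987) and FVF- E13.5 (0.988). The FVF+ E12.5 arrays correlated at 0.993 to 0.996. FVF+ E12.5 replicate 1 averaged 8.32 over 32 markers of FVF- cell types, against 7.64 and 7.5 in the other FVF+ arrays of that day, and 28 of the 32 were highest in it. Of 79 named genes that were not called, 6 were called without that array, an alternative chosen after the data were seen: Bnc1, C1qb, Csf1r, Nr2f2, Sfrp1 and Tcf21. From the 5 FVF- arrays alone 15 of the 79 were called, and from the FVF- arrays of all 4 days 6 were. Of 163 named genes that were called, 3 and 14 were not called in those 2 fits.

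**Figure D1:**
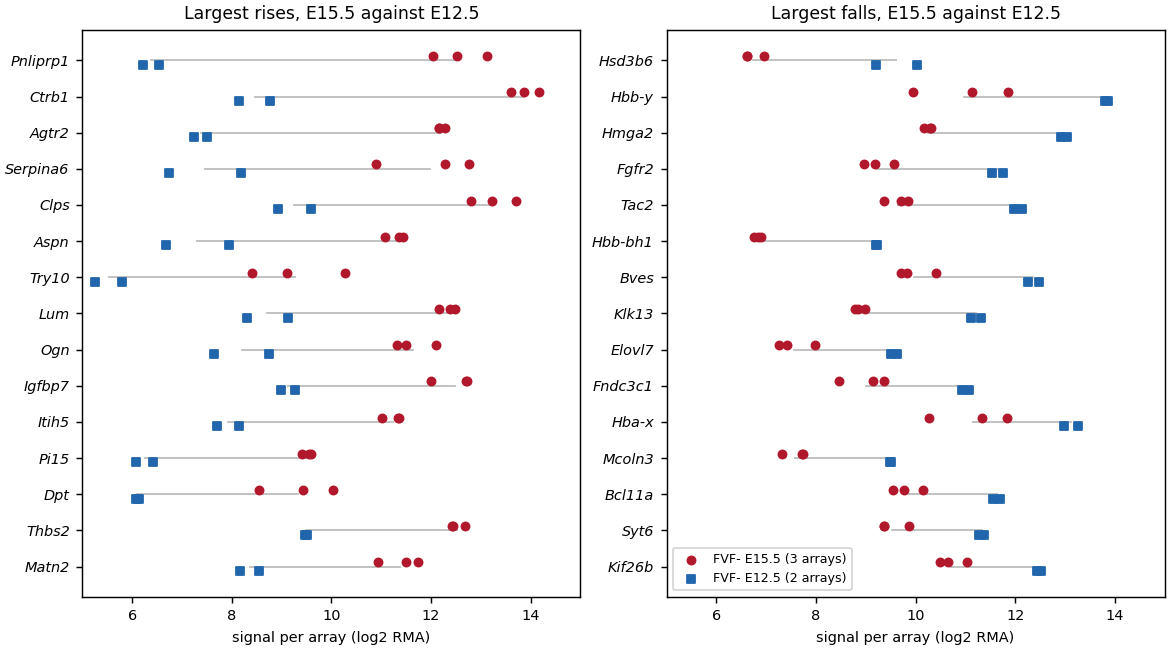
Log2 RMA signal of every FVF- array for the 15 largest called rises (left panel) and the 15 largest called falls (right panel) whose arrays of the 2 days do not overlap; red circles are the 3 E15.5 arrays, blue squares the 2 E12.5 arrays, and the grey line joins the group means. Pnliprp1 spans 12.05 to 13.12 at E15.5, against 6.22 and 6.54 at E12.5, and Hbb-y spans 9.94 to 11.86 at E15.5, against 13.81 and 13.86 at E12.5.

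**Figure D2:**
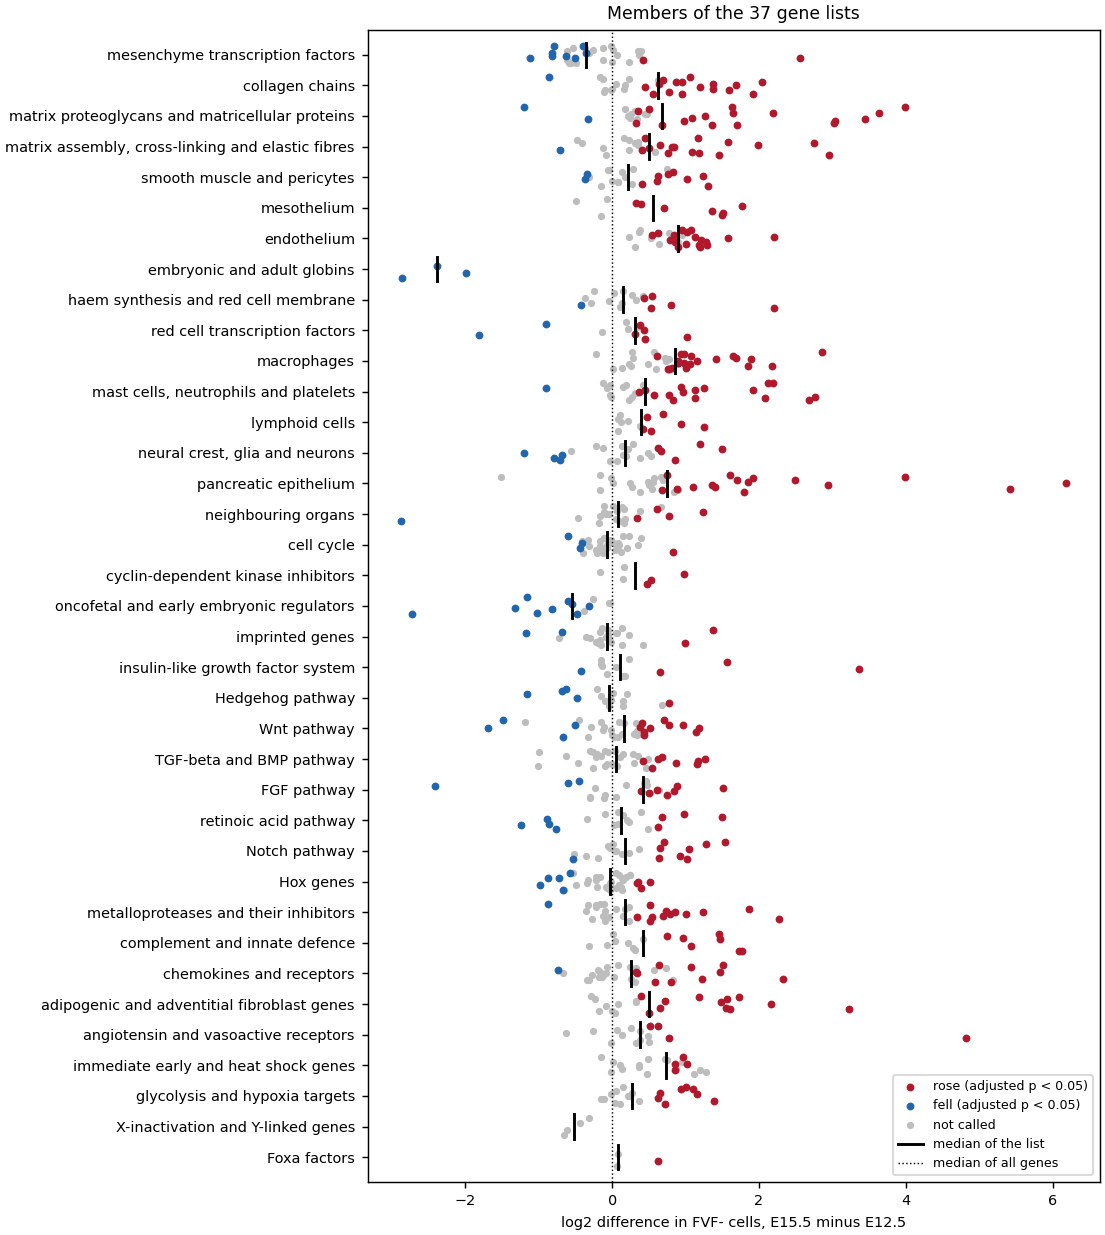
Log2 difference, E15.5 minus E12.5 in FVF- cells, of each measured member of the 37 gene lists (1 point per gene, 1 row per list); red points rose, blue points fell, grey points were not called, black bars are list medians and the dotted line is the median of all genes. The endothelial list has a median of 0.90 and the macrophage list of 0.86, against -0.36 for the mesenchyme transcription factors and -0.55 for the oncofetal regulators.

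Many matrix proteins rose. Of 27 proteoglycans and matricellular proteins 17 rose and 2 fell, with a median difference of 0.69. Aspn (asporin), a small leucine-rich proteoglycan that binds collagen, had 11.36, 11.43 and 11.08 at E15.5 and 7.94 and 6.67 at E12.5. Its difference was 3.99 ± 0.29 (adjusted p = 1.9e-07), a 15.8-fold higher signal. Lum (lumican), which spaces collagen fibrils, had 12.16, 12.49 and 12.39 at E15.5 and 9.13 and 8.30 at E12.5. The lowest E15.5 array of Aspn and of Lum lay 3 log2 units or more above the highest E12.5 array. Ogn (osteoglycin), of the same family, rose by 3.44 ± 0.32 and Matn2 (matrilin 2), a filament-forming adaptor, by 3.03 ± 0.27. Thbs2 (thrombospondin 2), a matricellular inhibitor of vessel growth, had 12.69, 12.42 and 12.45 at E15.5 and 9.46 and 9.5 at E12.5. The Thbs2 difference of 3.04 ± 0.21 had the smallest adjusted p of these 5 (9.5e-08). The glypican Gpc6, a heparan sulphate proteoglycan of the cell surface, went the other way, with 11.80, 11.59 and 11.70 at E15.5 and 12.90 and 12.89 at E12.5 (-1.20 ± 0.16). Sparcl1 differed by 0.21 ± 0.38 and Bgn (biglycan) by 0.25 ± 0.42, and neither was called.

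Collagen chains and the enzymes and fibres that assemble them followed the same direction. Of 28 collagen chains 16 rose and 1 fell, with a median of 0.63, and of 27 genes of matrix assembly, cross-linking and elastic fibres 15 rose and 1 fell, with a median of 0.50. Col6a2, a chain of the beaded microfibrils around cells, had 12.71, 12.67 and 12.60 at E15.5 and 10.73 and 10.52 at E12.5 (2.04 ± 0.19, adjusted p = 1.8e-06). Its partner chain Col6a1 rose by 1.92 ± 0.21. Col12a1, a fibril-associated collagen, rose by 1.69 ± 0.27. The basement membrane chains Col4a2 and Col4a1, whose genes share a promoter region, rose by 1.59 ± 0.19 and 1.37 ± 0.19. Lox (lysyl oxidase), which cross-links collagen and elastin, had 12.86, 13.01 and 13 at E15.5 and 10.44 and 9.58 at E12.5 (2.95 ± 0.35). Mfap5, a glycoprotein of elastic microfibrils, had 10.37, 9.65 and 10.27 at E15.5 and 7.37 and 7.33 at E12.5 (2.75 ± 0.17, adjusted p = 5e-08). Eln (elastin) rose by 1.98 ± 0.15, Efemp1 (fibulin 3) by 1.58 ± 0.22 and P4ha2, a prolyl hydroxylase of collagen, by 1.45 ± 0.19. Mfap2, another microfibril glycoprotein, was high on both days, at 13.55, 13.75 and 13.60 at E15.5 and 13.78 and 13.74 at E12.5, and was not called. Each of the rises named here was also called with any 1 of the 5 arrays left out.

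Proteases that cut matrix, and genes of adventitial fibroblasts and fat precursors, also moved. Of 29 metalloproteases and inhibitors 12 rose and 1 fell. Adamts5, which cleaves the proteoglycans aggrecan and versican, had 11.34, 11.49 and 11.23 at E15.5 and 9.46 and 8.69 at E12.5 (2.28 ± 0.27). Adamts16 rose by 1.86 ± 0.35 and Mmp23 by 1.24 ± 0.14, whereas the gelatinase Mmp2 differed by -0.10 ± 0.37 and was not called. Without E12.5 replicate 1, 6 of the 29 rose. Of 21 adipogenic and adventitial genes 12 rose. Dpt (dermatopontin), a matrix protein of adventitial fibroblasts, had 10.04, 8.55 and 9.42 at E15.5 and 6.08 and 6.13 at E12.5 (3.23 ± 0.30). Its E15.5 arrays spread over 1.5 log2 units and still lay well apart from E12.5. Mgp (matrix gamma-carboxyglutamate protein), an inhibitor of calcification, rose by 2.17 ± 0.19, and the fatty acid handling genes Cd36 and Lpl rose by 1.72 ± 0.32 and 1.61 ± 0.26. Pdgfra, the growth factor receptor of fibroblasts, differed by -0.29 ± 0.37 and was not called. Among the 15 largest rises were also Itih5, which stabilises hyaluronan (3.31 ± 0.26), and Pi15, a secreted protein of the cysteine-rich family (3.26 ± 0.38).

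Transcription factors of the mesenchyme did not follow the matrix genes. Of 29 measured, 2 rose and 8 fell, with a median of -0.36. Osr2, a zinc finger factor of urogenital and gut mesenchyme, was the exception in size, with 11.91, 12.06 and 12.34 at E15.5 and 9.65 and 9.45 at E12.5 (2.55 ± 0.30, adjusted p = 1.5e-05). Its relative Osr1 differed by 0.36 ± 0.45 and was not called. The homeodomain cofactors Meis2 and Meis1 fell, Meis2 by 0.81 ± 0.12 and Meis1 by 0.79 ± 0.12. Meis2 had 12.04, 12.46 and 12.28 at E15.5 and 13.03 and 13.12 at E12.5. Tbx3, a T-box repressor, fell by 1.12 ± 0.26, a call that was lost without E12.5 replicate 2 (-1.04). Barx1, a homeobox gene needed for stomach and spleen development, differed by -0.54 ± 0.31, and Nr2f2 by -0.59 ± 0.35, and neither was called. From the 5 FVF- arrays alone limma called both (adjusted p = 0.00935 and 0.00246), and 13 of the 29 fell. The count of 8 falls was 4 without E15.5 replicate 2 or without E12.5 replicate 2, and 5 without E15.5 replicate 3 or E12.5 replicate 1.

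Contractile and pericyte genes rose in part. Of 22 measured, 8 rose and 2 fell. Cspg4 (NG2), a proteoglycan of pericytes, had 11.60, 11.30 and 11.43 at E15.5 and 10.23 and 10.19 at E12.5 (1.23 ± 0.17, adjusted p = 6.6e-05), and Smtn (smoothelin), a protein of contractile smooth muscle, rose by 0.83 ± 0.14. Acta2 (smooth muscle actin) had 12.91, 12.68 and 12.87 at E15.5 and 11.55 and 11.48 at E12.5 (1.31 ± 0.36), but lost its call without E12.5 replicate 1 (1.34) or replicate 2 (1.27). Pdgfrb, the receptor that pericytes depend on, and Des (desmin) differed by 0.08 ± 0.23 and 0.09 ± 0.32 and were not called. Without E12.5 replicate 1, 3 of the 22 rose, and without replicate 2, 5 did.

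Most mesothelial genes rose. Of 10 measured, 7 rose and 3 were not called. Lrrn4, a leucine-rich membrane protein of mesothelium, had 11.66, 11.38 and 11.60 at E15.5 and 9.78 and 9.77 at E12.5 (1.77 ± 0.26). Gpm6a rose by 1.51 ± 0.23, Aldh1a2 by 1.5 ± 0.22 and Upk3b (uroplakin 3b) by 1.36 ± 0.28. Smaller rises were measured for Rspo1 (0.71 ± 0.18), Msln (mesothelin, 0.40 ± 0.10) and Tbx18 (0.33 ± 0.10), and all 3 calls were lost without 1 or the other E12.5 array. Wt1, the transcription factor that defines mesothelium, had 11.50, 11.25 and 11.59 at E15.5 and 11.60 at both E12.5 arrays and was not called (-0.15 ± 0.27), and neither were Upk1b (-0.06 ± 0.40) and Bnc1 (-0.50 ± 0.22).

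Endothelial genes rose widely. Of 27 measured, 18 rose and the other 9 were not called, with a median of 0.90. Lyve1, a hyaluronan receptor of lymphatic endothelium that some macrophages also carry, had 11.02, 11.73 and 11.99 at E15.5 and 9.45 and 9.31 at E12.5 (2.20 ± 0.29, adjusted p = 4.3e-05). Plvap, a protein of fenestrated capillaries, had 11.67, 10.90 and 11.86 at E15.5 and 9.73 and 10.08 at E12.5 (1.57 ± 0.34). Robo4, an endothelial guidance receptor, rose by 1.29 ± 0.27, Sox18 by 1.28 ± 0.28 and Apln (apelin), a ligand made by sprouting tip cells, by 1.21 ± 0.18. Eng (endoglin) had 12.82, 12.62 and 12.87 at E15.5 and 12.02 and 11.97 at E12.5, which do not overlap. Eng, Cdh5 (VE-cadherin) and Aplnr differed by 0.78 ± 0.42, 0.96 ± 0.50 and 0.31 ± 0.44 and were not called. From the 5 FVF- arrays alone Eng (adjusted p = 0.00103) and Cdh5 (adjusted p = 0.00529) were called by limma, and 22 of the 27 genes rose. E15.5 replicate 2 stood low for this group: the mean of the 27 genes was 10.14 in it, against 10.53 and 10.79 in the other E15.5 arrays, and 9.47 and 9.67 at E12.5. The number of endothelial rises was 4 without E12.5 replicate 1, 10 without E12.5 replicate 2 and 12 without E15.5 replicate 3; Plvap (1.40) and Robo4 (1.10) were not called without E12.5 replicate 1.

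Red cell genes moved in opposite directions. Of 10 globin genes listed, 3 were measured through a single-gene probe set. All 3 fell, and all 3 are embryonic chains made by primitive red cells of the yolk sac. Hbb-bh1, a beta-like embryonic globin, had 6.75, 6.83 and 6.89 at E15.5 and 9.22 and 9.20 at E12.5 (-2.39 ± 0.26, adjusted p = 6.5e-06), a 5.23-fold lower signal. Hbb-y, the epsilon-type chain, had 9.94, 11.86 and 11.13 at E15.5 and 13.81 and 13.86 at E12.5 (-2.86 ± 0.75). Hba-x, the zeta-type chain, had 10.26, 11.84 and 11.33 at E15.5 and 12.99 and 13.27 at E12.5 (-1.99 ± 0.53). The groups did not overlap for any of the 3, but the E15.5 arrays of Hbb-y and Hba-x spread widely, with replicate 1 lowest. Their calls were lost without E15.5 replicate 1, E12.5 replicate 1 or E12.5 replicate 2, with differences from -3.30 to -2.34 for Hbb-y and from -2.34 to -1.55 for Hba-x over the 5 omissions.

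The promoters of Hbb-y and Hba-x are shown because both genes fell together and both windows hold CACCC and TGATAA, short motifs known from globin promoters. Each runs 5′ to 3′ on the gene's strand over 300 bases from upstream of the start site to just past it, from RefSeq on GRCm38.p6, and 2 of the 3 globins matched the promoter table. Hbb-y lies on the minus strand at chr7:103853158-103853457 and Hba-x on the plus strand at chr11:32276350-32276649. Capitals mark the motif CACCC, the motif TGATAA for GATA factors and the motif CCAAT, on either strand, with no overlaps between them.
Hbb-y: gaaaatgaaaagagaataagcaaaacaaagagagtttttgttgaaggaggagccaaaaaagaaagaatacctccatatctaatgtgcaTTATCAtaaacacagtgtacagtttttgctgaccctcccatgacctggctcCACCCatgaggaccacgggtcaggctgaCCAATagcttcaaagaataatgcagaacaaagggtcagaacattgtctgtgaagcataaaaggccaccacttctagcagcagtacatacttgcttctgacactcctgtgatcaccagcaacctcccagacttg
Hba-x: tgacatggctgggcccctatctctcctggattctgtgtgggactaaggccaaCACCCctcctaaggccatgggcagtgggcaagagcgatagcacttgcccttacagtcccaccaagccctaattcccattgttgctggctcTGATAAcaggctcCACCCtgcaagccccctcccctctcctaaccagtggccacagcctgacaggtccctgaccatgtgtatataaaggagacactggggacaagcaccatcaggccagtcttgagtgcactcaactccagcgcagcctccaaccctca
Hbb-y held 1 CACCC, 1 TGATAA and 1 CCAAT, and Hba-x held 2 CACCC and 1 TGATAA. Of all 32851 promoter windows in the table, 57.5% held CACCC, 9.05% TGATAA and 37.4% CCAAT. A match describes the letters and is not a measured binding site.

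Other red cell genes moved in both directions. Alas2, the erythroid enzyme that starts haem synthesis, had 11.86, 11.75 and 11.20 at E15.5 and 9.40 and 9.39 at E12.5 (2.21 ± 0.17, adjusted p = 2e-07). The mitochondrial iron importer Slc25a37 (mitoferrin 1) rose by 0.80 ± 0.15. In all, 5 of 17 haem and membrane genes rose and 1 fell, and 3 rose without E15.5 replicate 1 or without E12.5 replicate 1. Slc4a1 (band 3), the anion exchanger of the red cell membrane, differed by 0.32 ± 0.26 and was not called. Among 11 transcription factors 5 rose and 2 fell. The 2 that fell were Bcl11a, with 9.55, 10.14 and 9.77 at E15.5 and 11.56 and 11.70 at E12.5 (-1.81 ± 0.20), and Sox6, with 10.62, 10.79 and 10.74 at E15.5 and 11.61 and 11.62 at E12.5 (-0.90 ± 0.15). Both are known as repressors of embryonic globin genes in definitive red cells and are also made outside blood. The 5 that rose were Lmo2 (1.02 ± 0.23), Gata1 (0.45 ± 0.12), Klf3 (0.43 ± 0.12), Zfpm1 (0.38 ± 0.12) and Tal1 (0.31 ± 0.11), and without E12.5 replicate 1 none of these 5 was called. The other 4, Klf1 (0.34 ± 0.12), Gfi1b (0.22 ± 0.11), Nfe2 (0.19 ± 0.13) and Myb (-0.13 ± 0.16), were not called.

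Leukocyte transcripts increased. Of 34 macrophage genes 21 rose and 13 were not called, with a median of 0.86, and 13 rose without E12.5 replicate 2. Cd74, the invariant chain of MHC class II antigen presentation, had 9.77, 9.97 and 9.95 at E15.5 and 6.99 and 7.08 at E12.5 (2.86 ± 0.28, adjusted p = 2.1e-06). The class II chains H2-Aa and H2-Ab1 rose by 1.89 ± 0.25 and 1.85 ± 0.27. Lyz2 (lysozyme) had 12.78, 12 and 12.33 at E15.5 and 10.47 and 9.91 at E12.5 (2.18 ± 0.42), and the signalling adaptor Tyrobp rose by 1.69 ± 0.23. Csf1r, the receptor that macrophages need to survive, had 10.88, 11.21 and 11.46 at E15.5 and 10.28 and 10.66 at E12.5, and its difference of 0.71 ± 0.28 was not called (adjusted p = 0.078). C1qb (0.73 ± 0.44) and Fcer1g (0.60 ± 0.32) were likewise not called. From the 5 FVF- arrays alone limma called Csf1r (adjusted p = 0.0163), C1qb (adjusted p = 0.00291) and Fcer1g (adjusted p = 0.0489), and 27 of the 34 rose.

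Granulocyte and mast cell genes rose in part. Of 29 in the list of mast cells, neutrophils and platelets 16 rose, 1 fell and 12 were not called, with a median of 0.45. Cpa3, the mast cell carboxypeptidase, had 12.06, 12.05 and 12.17 at E15.5 and 9.97 and 8.85 at E12.5 (2.68 ± 0.41, adjusted p = 0.00016). The mast cell tryptase Tpsb2 rose by 2.19 ± 0.24 and Hdc, which makes histamine, by 2.09 ± 0.18. Ngp, a granule protein of maturing neutrophils, had 11.19, 10.11 and 10.20 at E15.5 and 7.72 and 7.76 at E12.5 (2.76 ± 0.28), and S100a8 (calgranulin A) rose by 2.12 ± 0.23. The platelet chemokine Ppbp was the member that fell (-0.91 ± 0.28), a call lost without E15.5 replicate 1 or 2 or E12.5 replicate 1. Kit (0.27 ± 0.11), Mpo (0.33 ± 0.25) and Mmp9 (0.14 ± 0.16) were not called. Of 12 lymphoid genes 6 rose, led by the interleukin 7 receptor Il7r (1.25 ± 0.15); it was the 1 rise called without E12.5 replicate 2. The other rises were Nkg7 of cytotoxic cells (0.94 ± 0.23), the B cell receptor component Cd79a (0.70 ± 0.19), the interleukin receptor chain Il2rb (0.53 ± 0.17), the cytokine receptor Flt3 (0.48 ± 0.11) and Ptprcap (0.42 ± 0.14). In FVF+ cells 5 of the 12 lymphoid genes rose. The change was called more positive in FVF- for 1 of them and more negative for 1. Il7r, Cd79a, Il2rb and Flt3 averaged below the lowest array median of 8.68 in FVF- cells on both days. The recombinase genes Rag1 (0.11 ± 0.12) and Rag2 (0.11 ± 0.11) and the T cell receptor chains Cd3e (0.08 ± 0.14), Cd3d (0.08 ± 0.10) and Cd3g (0.38 ± 0.17), like Cd79b (0.21 ± 0.18), were not called.

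Chemokines and complement genes rose in smaller numbers. Of 31 chemokines and receptors 10 rose and 1 fell, and 5 rose without E12.5 replicate 1. Cxcl13, which draws B cells into lymphoid organs, had 12.39, 12.37 and 12.42 at E15.5 and 10.09 and 10.05 at E12.5 (2.32 ± 0.30). Ccl9 rose by 1.51 ± 0.15 and the eosinophil attractant Ccl11 by 1.48 ± 0.13, and the receptors Ccr1 and Ccr2 of monocytes by 1.22 ± 0.17 and 1.07 ± 0.09. Cxcl12 was not called (-0.17 ± 0.14). Of 15 complement and innate defence genes 7 rose: the protease C1s1 had 8.0, 6.97 and 7.65 at E15.5 and 5.79 and 5.76 at E12.5 (1.77 ± 0.22), and the scavenger receptor Colec12 rose by 1.72 ± 0.17 and the complement regulator Cd55 by 1.47 ± 0.23.

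Neural genes showed no common direction. Of 22 measured, 5 rose and 4 fell. Stmn2 (stathmin 2), a growth cone protein, had 11.01, 11.34 and 11.28 at E15.5 and 9.91 and 9.53 at E12.5 (1.49 ± 0.22), and Prph (peripherin), a filament of peripheral neurons, rose by 1.19 ± 0.17. Gap43, another growth cone protein, had 10.22, 10.30 and 10.59 at E15.5 and 11.62 and 11.53 at E12.5 (-1.20 ± 0.26), and Dbh, which makes noradrenaline, fell by 0.68 ± 0.14. The glial genes Fabp7 (0.52 ± 0.40) and Ednrb (0.13 ± 0.38) were not called. Without one or the other E12.5 array 3 rose, and without replicate 2, 2 fell. Of 22 genes of organs that border the pancreas 4 rose and 1 fell, and 2 rose without one or the other E12.5 array. Hsd3b6, a steroid-synthesis enzyme, had the largest fall of all named genes, with 6.96, 6.61 and 6.62 at E15.5 and 9.20 and 10.02 at E12.5 (-2.88 ± 0.50). Cyp11a1, the side-chain cleavage enzyme that begins steroid synthesis, rose by 1.24 ± 0.22 and Gata6 by 0.77 ± 0.10. The spleen mesenchyme factors Tlx1 (-0.18 ± 0.28) and Nkx2-5 (0.06 ± 0.22) were not called.

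The largest rises of all were digestive enzymes, although FVF- cells exclude Foxa2-bearing epithelium by the sort. Pnliprp1, a pancreatic lipase-related protein of acinar cells, had 12.05, 12.53 and 13.12 at E15.5 and 6.54 and 6.22 at E12.5 (6.19 ± 0.48, adjusted p = 2.3e-07), a 72.8-fold higher signal. Ctrb1 (chymotrypsinogen B1) had 13.60, 13.87 and 14.16 at E15.5 and 8.77 and 8.15 at E12.5 (5.42 ± 0.44). Clps (colipase), the cofactor of pancreatic lipase, had 12.80, 13.23 and 13.70 at E15.5 and 9.58 and 8.92 at E12.5 (3.99 ± 0.31). The 3 genes have the same order of arrays at E15.5, with replicate 3 highest and replicate 1 lowest. Cel (carboxyl ester lipase) rose by 2.94 ± 0.38, Cpb1 (carboxypeptidase B) by 2.50 ± 0.35 and the trypsinogen gene Try10 by 3.74 ± 0.39. Serpina6, the corticosteroid-binding globulin, had 10.89, 12.28 and 12.77 at E15.5 and 8.19 and 6.73 at E12.5 (4.52 ± 0.48).

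The same transcripts were higher still in FVF+ cells. Pnliprp1 averaged 14.54 in FVF+ cells at E15.5 and 12.82 at E12.5, Ctrb1 14.92 and 13.70, and Clps 14.87 and 14.40. Of the 33 epithelial genes 16 rose in FVF- cells and 17 were not called, with a median of 0.75. All 11 acinar enzyme genes of the list were among the 16. The list averaged 8.95, 9.55 and 9.49 in the E15.5 arrays and 8.13 and 8.05 at E12.5. The other 5, picked out after their values were seen, were Cdh1 (E-cadherin), the epithelial keratins Krt8 (1.41 ± 0.19) and Krt18 (0.75 ± 0.19), and the beta cell genes Iapp (1.36 ± 0.39) and Ins2 (0.89 ± 0.26). The calls of Iapp, Ins2 and Krt18 were lost with E12.5 replicate 1 or replicate 2 left out. Those of Iapp (0.86) and Ins2 (0.65) were also lost without E15.5 replicate 2, the E15.5 array in which both were highest. Cdh1 had 8.86, 9.94 and 9.75 at E15.5 and 7.84 and 7.80 at E12.5 (1.70 ± 0.38), while Epcam (0.84 ± 0.37), the progenitor factors Pdx1 (0.66 ± 0.29) and Sox9 (0.01 ± 0.27), and the endocrine genes Chga (-0.16 ± 0.29), Gcg (-1.51 ± 0.63) and Sst (0.24 ± 0.27) were not called. From the 5 FVF- arrays alone limma called Epcam (adjusted p = 0.0119) and Pdx1 (adjusted p = 0.0068). At E15.5 Epcam averaged 7.91 in FVF- and 11.77 in FVF+ cells, and Cdh1 9.52 and 13.16. The part that FVF+ cells in the FVF- gate had in these rises was not tested.

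The promoters of Ctrb1 and Cel are shown because both genes rose and both windows hold TTTCCCA, letters found within the known site of PTF1, the factor complex that drives acinar enzyme genes. They are RefSeq windows on GRCm38.p6 as above, on the minus strand at chr8:111690961-111691260 and chr2:28563354-28563653. Capitals mark TTTCCCA on either strand.
Ctrb1: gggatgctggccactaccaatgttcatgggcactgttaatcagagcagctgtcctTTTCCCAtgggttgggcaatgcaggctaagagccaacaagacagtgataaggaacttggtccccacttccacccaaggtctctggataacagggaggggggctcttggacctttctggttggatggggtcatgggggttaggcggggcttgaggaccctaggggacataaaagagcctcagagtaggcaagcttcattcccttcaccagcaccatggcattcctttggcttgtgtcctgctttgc
Cel: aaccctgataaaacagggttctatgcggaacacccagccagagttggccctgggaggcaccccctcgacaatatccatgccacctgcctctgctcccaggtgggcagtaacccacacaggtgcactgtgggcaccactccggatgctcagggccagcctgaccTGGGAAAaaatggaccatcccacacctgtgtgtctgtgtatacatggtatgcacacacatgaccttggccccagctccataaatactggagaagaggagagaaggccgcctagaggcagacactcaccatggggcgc
Of the 5 acinar genes Pnliprp1, Ctrb1, Clps, Cel and Cpb1, 4 matched the promoter table and 2 held TTTCCCA, as did 8.06% of all windows.

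Regulators of early embryonic growth fell. Of 13 oncofetal genes 9 fell and 4 were not called, with a median of -0.55. Hmga2, a chromatin architectural protein of proliferating embryonic cells, had 10.29, 10.17 and 10.31 at E15.5 and 12.92 and 13.04 at E12.5 (-2.72 ± 0.29, adjusted p = 4.7e-06), a 6.60-fold lower signal. Lin28b, which blocks maturation of the let-7 microRNAs that target Hmga2, had 6.47, 6.40 and 6.15 at E15.5 and 7.22 and 7.11 at E12.5 (-0.82 ± 0.12). The RNA-binding protein gene Igf2bp1 fell by 1.16 ± 0.14, Mycn by 1.03 ± 0.11 and Sox11 by 1.33 ± 0.28. Without one or the other E12.5 array 5 genes fell, and the 5 named here held their calls under all 5 omissions. Of 33 cell cycle genes 1 rose and 3 fell, and the list median was -0.07, or 0.01 after cyclic loess. Cdk1, which drives entry into mitosis, had 12.57, 12.34 and 12.84 at E15.5 and 12.40 and 12.61 at E12.5 (0.08 ± 0.15), and Pcna, the replication clamp, differed by -0.12 ± 0.12. The 4 calls were lost without one or the other E12.5 array. Of 6 cyclin-dependent kinase inhibitors Cdkn2c rose by 0.98 ± 0.16, Cdkn2d by 0.53 ± 0.15 and Cdkn1b by 0.47 ± 0.12, of which Cdkn2c alone was called without E12.5 replicate 2, and Cdkn1c (-0.16 ± 0.15), Cdkn2a (0.15 ± 0.12) and Cdkn2b (0.17 ± 0.15) were not called.

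Few imprinted genes were called, with 2 of 24 up and 2 down, beside 10.7% up and 9.7% down over all genes. Igf2 had 14.42, 14.25 and 14.31 at E15.5 and 14.42 and 14.55 at E12.5, and neither it (-0.16 ± 0.11) nor Dlk1 (0.05 ± 0.10) nor Mest (-0.05 ± 0.15) was called. The 4 exceptions were Dio3, which inactivates thyroid hormone (1.38 ± 0.19), Magel2 (0.99 ± 0.16), Nnat (neuronatin, -1.18 ± 0.19) and the amino acid transporter Slc38a4 (-0.69 ± 0.13). In the insulin-like growth factor system the called changes were those of 3 binding proteins and a receptor, and neither ligand was called. Igfbp7 had 12.71, 12 and 12.72 at E15.5 and 9.26 and 8.98 at E12.5 (3.36 ± 0.26), Igfbp6 rose by 1.57 ± 0.17 and Igfbp2 by 0.65 ± 0.19. Igf1r fell by 0.43 ± 0.14, and its call was lost with any of the 5 arrays left out, as was that of Igfbp2 with 3 of them. Igf1 (0.15 ± 0.17), Igf2r (0.22 ± 0.11), Igfbp3 (-0.15 ± 0.32), Igfbp4 (0.06 ± 0.15), Igfbp5 (-0.06 ± 0.15), Igfbp1 (-0.14 ± 0.13) and Igfals (0.18 ± 0.12) were not called.

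In the signalling lists some members rose and others fell. In the FGF list 7 of 22 rose and 3 fell, and 1 fell without E12.5 replicate 1. Fgf10, the mesenchymal ligand that keeps pancreatic progenitors dividing, had 9.02, 9.38 and 9.19 at E15.5 and 7.56 and 7.82 at E12.5 (1.51 ± 0.24). Fgfr2, whose epithelial splice form is the receptor of Fgf10, had 9.56, 9.18 and 8.96 at E15.5 and 11.54 and 11.76 at E12.5 (-2.42 ± 0.28, adjusted p = 1.3e-05); these values do not separate its splice forms. Fgf2 rose by 0.88 ± 0.16 and the feedback inhibitor Spry2 by 0.75 ± 0.16, and Fgfr1 was not called (-0.31 ± 0.11). In the Wnt list 10 of 35 rose and 4 fell, or 4 and 2 without E12.5 replicate 2 and 6 and 2 without replicate 1. Lef1, the nuclear partner of beta-catenin, had 8.93, 8.95 and 8.77 at E15.5 and 10.40 and 10.74 at E12.5 (-1.69 ± 0.16), and the ligand Wnt5a fell by 1.48 ± 0.32. The ligands Wnt4 and Wnt2b rose by 1.14 ± 0.18 and 0.97 ± 0.20. Sfrp2, a secreted Wnt antagonist, rose by 1.18 ± 0.26, a call lost without E12.5 replicate 2 (1.04), and its relative Sfrp1 differed by -1.18 ± 0.43 and was not called.

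In the Hedgehog list Gli1, a transcriptional target of the pathway, rose (9.28, 9.07 and 8.82 at E15.5 and 8.31 and 8.27 at E12.5, 0.77 ± 0.13), the only rise among 15. Scube1 fell by 1.16 ± 0.17 and was 1 of 4 falls; 1 gene of the list fell without E15.5 replicate 1 or 3 or either E12.5 array, and after cyclic loess, and the receptor component Smo was not called (-0.15 ± 0.12). Of 32 TGF-beta and BMP genes 8 rose and 24 were not called, though 2 fell after median centring or quantile normalization, and 4 from the 5 FVF- arrays alone. Bmp2 had 7.99, 8.05 and 8.33 at E15.5 and 6.70 and 7.02 at E12.5 (1.26 ± 0.17), Bmp6 rose by 1.17 ± 0.15, Gdf10 by 1.16 ± 0.14 and the receptor Tgfbr2 by 0.68 ± 0.11. Of 20 Notch genes 8 rose and 1 fell, and 5 rose without E12.5 replicate 1. Heyl, a Notch target of vascular smooth muscle, had 11.26, 11.19 and 11.50 at E15.5 and 9.78 and 9.77 at E12.5 (1.54 ± 0.19), and the endothelial ligand Dll4 rose by 1.28 ± 0.21 and the receptor Notch1 by 1.02 ± 0.14. Jag1 (0.03 ± 0.14) and Notch2 (-0.03 ± 0.14) were not called.

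Retinoic acid genes moved both ways, with 4 of 18 up and 4 down; 2 rose without one or the other E12.5 array, and 2 fell without replicate 1. Aldh1a2, the main enzyme that makes retinoic acid in embryonic mesenchyme and mesothelium, had 11.43, 11.23 and 11.49 at E15.5 and 10.00 and 9.77 at E12.5 (1.5 ± 0.22), and Dhrs3, which turns retinal back to retinol, rose by 0.98 ± 0.17. Rdh10, which supplies retinal, had 11.42, 11.21 and 11.30 at E15.5 and 12.75 and 12.35 at E12.5 (-1.24 ± 0.18), and Stra6, the retinol receptor, fell by 0.89 ± 0.20. Of 34 Hox genes, which set position along the body axis, 4 rose and 5 fell, but 2 rose and 8 fell after median centring or from the 5 FVF- arrays alone, and 2 rose and 6 fell after quantile normalization. Over all genes 10.7% rose and 9.7% fell. The 2 largest changes were falls of anterior members, Hoxb4 with 9.48, 9.27 and 9.59 at E15.5 and 10.35 and 10.52 at E12.5 (-0.99 ± 0.18) and Hoxa3 (-0.88 ± 0.16). Without E12.5 replicate 1 none of the 4 Hox rises was called and 3 fell, and without replicate 2, 1 rose and 2 fell.

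Agtr2, the type 2 receptor of angiotensin II, which embryonic mesenchyme is known to express strongly, had the third largest rise. It had 12.17, 12.29 and 12.16 at E15.5 and 7.51 and 7.25 at E12.5 (4.83 ± 0.38, adjusted p = 2.3e-07), a 28.4-fold higher signal. In its list of 15 vasoactive genes 3 more rose: the prostaglandin receptor Ptger4 (0.78 ± 0.09), the prostaglandin synthase Ptgs2 (0.63 ± 0.12) and the angiotensin-converting enzyme Ace (0.52 ± 0.10). Of 19 glycolysis and hypoxia genes 8 rose, led by carbonic anhydrase 9, Car9 (8.47, 8.71 and 8.75 at E15.5 and 7.24 and 7.27 at E12.5, 1.39 ± 0.19), and Ndrg1 (1.16 ± 0.17), while the glucose transporter Slc2a1 was not called (0.11 ± 0.13). In FVF+ cells 10 of the 19 rose, and 3 changed more negatively in FVF- and none more positively. Of 20 immediate early and heat shock genes 4 rose, or 9 from the 5 FVF- arrays alone. Of the same 20 genes 9 rose in FVF+ cells, and no difference between the sorts was called. Without E12.5 replicate 2, 2 of the 4 were called: Klf4 (1.02 ± 0.19) and Klf2 (0.97 ± 0.21). Jun (-0.16 ± 0.25) and Dusp1 (0.48 ± 0.45) were not called, and the E15.5 arrays of Dusp1 ran from 11.28 in replicate 1 to 12.48 in replicate 3. Xist (-0.65 ± 0.41) and the Y-linked genes Kdm5d (-0.61 ± 0.33), Uty (-0.32 ± 0.40) and Eif2s3y (-0.43 ± 0.38), a check on the mix of female and male embryos, were not called. Kdm5d was called as a fall by limma from the 5 FVF- arrays alone (adjusted p = 0.00416). Over the same days 3 of these 4 genes fell in FVF+ cells.

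The other large falls named by size had no shared list. Tac2 (tachykinin 2), a neuropeptide precursor, had 9.37, 9.84 and 9.71 at E15.5 and 12.13 and 11.97 at E12.5 (-2.41 ± 0.33). Bves, a membrane protein of the popeye domain family, fell by 2.38 ± 0.42, the kallikrein-related Klk13 by 2.35 ± 0.27, the fatty acid elongase Elovl7 by 2.01 ± 0.21 and Fndc3c1 by 2.00 ± 0.36. The cation channel Mcoln3 had 7.71, 7.73 and 7.32 at E15.5 and 9.5 and 9.48 at E12.5 (-1.90 ± 0.15, adjusted p = 2.3e-07). Syt6 and the kinesin Kif26b fell by 1.79 ± 0.26 and 1.75 ± 0.38. The calls of these 8 genes held with any 1 of the 5 arrays left out.

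Arrays of E13.5 and E14.5 hold none of the values compared, though they enter the shared estimate of the spread, and they placed the changes within the interval. From E13.5 to E14.5, 1805 of the 2073 genes that rose were also higher (87.1%) and 1450 of the 1872 that fell were lower (77.5%), beside 58.8% higher and 41.2% lower over all genes. Of genes that changed at least 2-fold, 431 of 488 risers (88.3%) and 150 of 153 fallers (98.0%) kept their direction in that step. In the step itself 8.30% of all genes were called, 5.68% as rises and 2.62% as falls. Cd74 had 10.63, 9.89 and 8.94 at E14.5 and 7.33 and 7.32 at E13.5 (2.50, adjusted p = 0.00028), so its 6 later arrays all lay at 8.94 or above and its 4 early ones at 7.33 or below. Alas2 had 12.16, 11.91 and 12.40 at E14.5 and 10.53 and 10.39 at E13.5. Other genes changed earlier: Aspn was at 10.18 and 9.92 at E13.5 and Lyve1 at 11.76 and 10.74, both above their E12.5 arrays, and neither was called between E13.5 and E14.5. Hbb-y was highest at E13.5, with 14.46 and 14.40, above its E12.5 arrays, and so was Hsd3b6, with 10.96 and 11.55. The 2 E13.5 arrays differed from each other in several of these genes; Agtr2, for one, had 10.13 and 8.12.

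**Figure D3:**
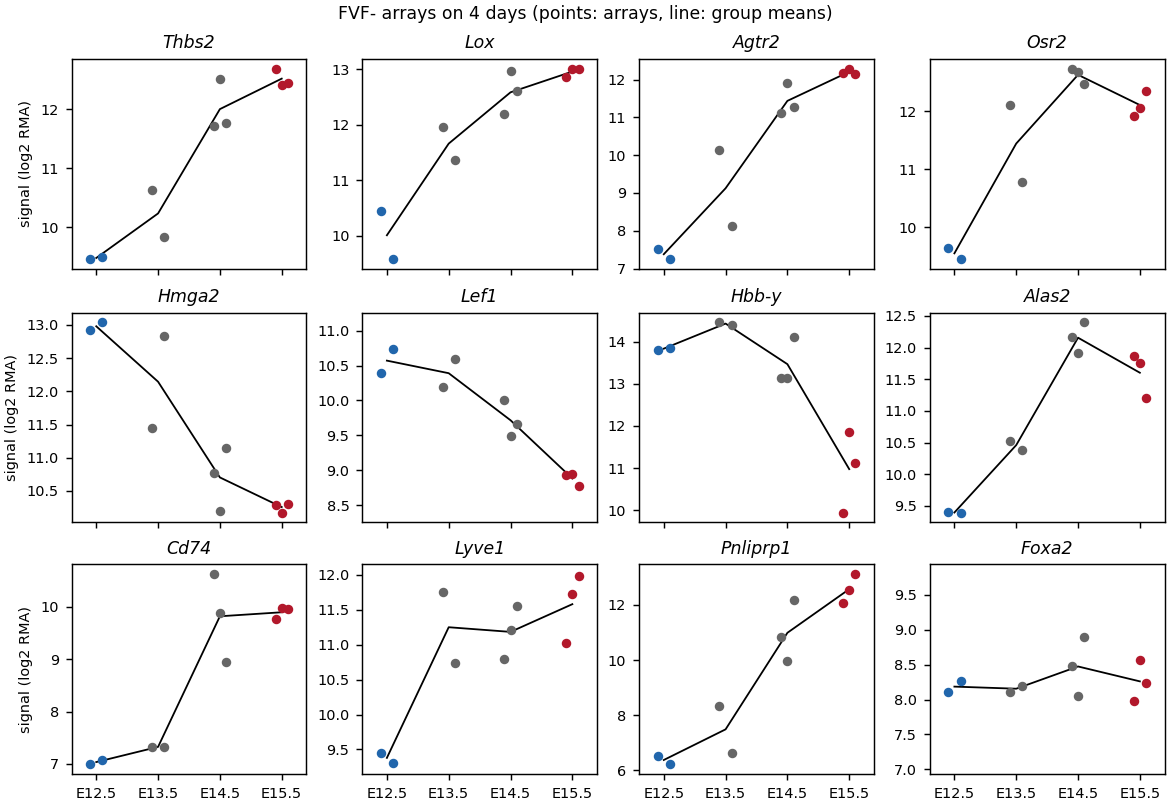
Log2 RMA signal of 12 genes in every FVF- array on the 4 days, in order of age; points are arrays (E12.5 with 2 in blue, E13.5 with 2 and E14.5 with 3 in grey, E15.5 with 3 in red) and the line joins group means. Each panel spans at least 3 log2 units. Cd74 lies between 6.99 and 7.33 on the 2 early days and at 8.94 or above on the later ones, while the Foxa2 arrays of the 2 outer days overlap.

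Whether the change differed between the sorts was tested as the FVF- change minus the FVF+ change over the same days. That difference was called for 3786 genes (19.6%), 1703 of them more positive in FVF- (8.83%) and 2083 more negative (10.8%); without FVF- E12.5 replicate 2 it was called for 1818. In FVF+ cells 46.9% of genes were called between E15.5 and E12.5, 27.6% as rises and 19.3% as falls. Of the 488 genes that rose at least 2-fold in FVF- cells, 329 differed from FVF+, and of the 153 that fell, 75 did. In 176 genes a rise in FVF- stood against a fall in FVF+, and in 111 a fall against a rise, with the difference called.

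Most genes with the largest positive differences rose in FVF- cells. Aspn, Ogn, Agtr2 and Adamts5 did so with differences from FVF+ of 3.77 ± 0.39, 3.71 ± 0.43, 3.90 ± 0.50 and 3.77 ± 0.36; in FVF+ cells Aspn and Ogn changed by 0.22 ± 0.26 and -0.27 ± 0.29 and Adamts5 fell by 1.49 ± 0.24. The acinar genes Pnliprp1 (4.47 ± 0.64) and Ctrb1 (4.20 ± 0.59), and Serpina6 (4.20 ± 0.64), rose by more log2 units in FVF- cells. In FVF+ cells they were already high at E12.5. From E12.5 to E15.5, FVF+ means went from 12.82 to 14.54 for Pnliprp1, 13.7 to 14.92 for Ctrb1 and 14.02 to 14.34 for Serpina6. Their FVF- means at E12.5 were 6.38, 8.46 and 7.46. RMA compresses differences near the ends of its range, and how far this shaped these differences between the sorts was not tested. On the negative side stood genes that rose in FVF+ cells and not, or less, in FVF-: the hormone gene Sst (-4.60 ± 0.36), Pdia2 (-3.97 ± 0.51), Prss3 (-3.80 ± 0.28), Cpb1 (-3.50 ± 0.48), Rnase1 (-3.45 ± 0.55), the islet zinc transporter Slc30a8 (-3.30 ± 0.25), Aqp8 (-3.22 ± 0.41) and Clca3a1 (-3.08 ± 0.48). Sst averaged 13.47 in FVF+ cells at E15.5 and 8.63 at E12.5, and stayed between 8.57 and 8.96 in the FVF- arrays of both days. Hmgn5, more positive in FVF- by 3.73 ± 0.86, fell in FVF+ cells and was not called in FVF-, where its E12.5 arrays lay apart (7.58 and 6.11). Nnat and Ret had opposite directions in the sorts: Nnat fell in FVF- and rose in FVF+ by 1.04 ± 0.17, a difference of -2.22 ± 0.25, and Ret fell by 0.71 ± 0.17 and rose by 1.55 ± 0.15, a difference of -2.26 ± 0.23. Without E12.5 replicate 2 the fall of Ret in FVF- was not called (-0.62).

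**Figure D4:**
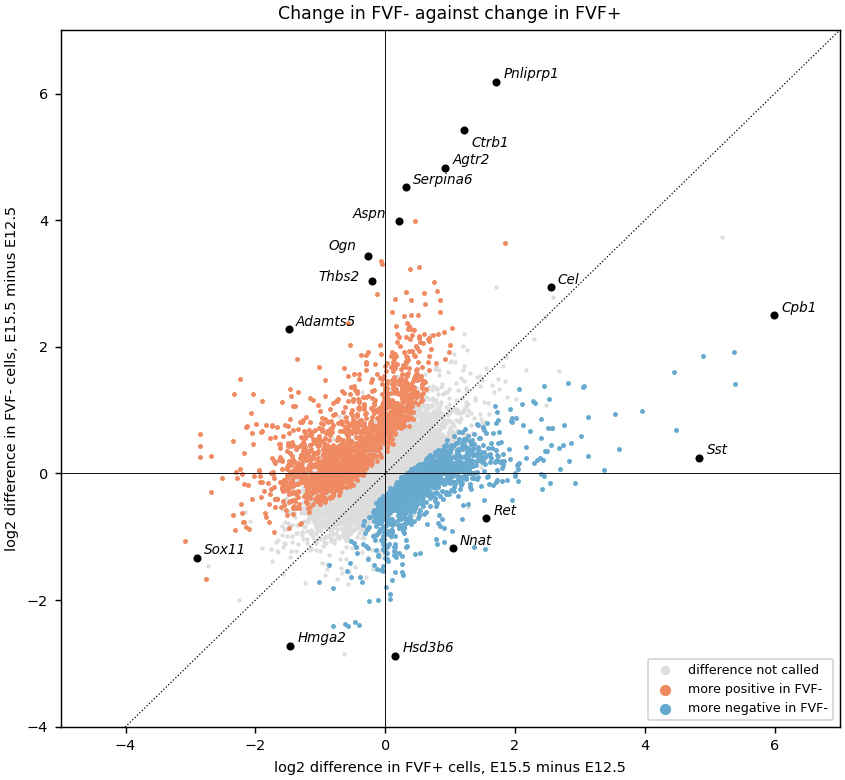
Log2 difference, E15.5 minus E12.5, of each of 19296 genes in FVF- cells (vertical) and in FVF+ cells (horizontal); orange genes changed more positively in FVF- and blue genes more negatively (adjusted p of the difference under 0.05), grey genes were not called, and the dotted line marks equal change. Agtr2 lies at 4.83 in FVF- and 0.92 in FVF+, and Sst at 0.24 in FVF- and 4.84 in FVF+.

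The oncofetal genes were among those that moved in both sorts. In FVF+ cells 11 of the 13 fell, beside 9 in FVF-, and the difference was called for 4. Hmga2 fell by 2.72 ± 0.29 in FVF- cells and by 1.46 ± 0.26 in FVF+ cells (difference -1.26 ± 0.38), and Sox11 by 1.33 ± 0.28 in FVF- cells and by 2.90 ± 0.25 in FVF+ cells (difference 1.57 ± 0.37). Of the 34 Hox genes 19 rose in FVF+ cells, and for 10 the change was more negative in FVF-. For the 27 endothelial genes the difference was called for 1, Lyve1 (1.38 ± 0.39). Of these 27 genes 10 rose in FVF+ cells, beside 18 in FVF-. Of 28 collagen chains 15 rose in FVF+ cells, beside 16 in FVF-. Among the collagen chains 7 changed more positively in FVF- and 4 more negatively. Over 32 markers of FVF- cell types the FVF+ arrays averaged 8.21, 8.45 and 8.19 at E15.5. At E12.5 they averaged 8.32, 7.64 and 7.5. The part that FVF- cells in the FVF+ gate had in the FVF+ changes was not tested. Of 27 proteoglycans and matricellular proteins 13, and of 29 genes of mast cells, neutrophils and platelets 12, changed more positively in FVF- cells and none more negatively.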

How the data were processed

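RNA of sorted pancreatic cells was extracted with the RNeasy Mini kit and labelled with Ambion and Affymetrix kits, per the labels' protocols. The authors' deposited values are log2 signals per probe set made by RMA (background correction, quantile normalization and probe set summary) with affy 1.44.0, per the submitters' processing notes; that the scale is log2 follows from the values, which run from 4.0 to 15.31 with array medians of 8.68 to 8.82. The sources used here do not give the probe set definition. RMA fits all arrays together and compresses differences near the ends of its range, and arrays carry no read depth.

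Of 23305 probe sets 20728 had 1 gene symbol in the platform annotation, 1174 had several and 1403 had none; the last 2 kinds were not used. For 804 genes with several probe sets the probe set of highest overall mean stood for the gene, which left 19296 genes. limma 3.58.1 in R 4.3.3 fitted 8 group means to 21 arrays (13 residual degrees of freedom), with moderated two-sided tests and Benjamini-Hochberg adjustment over all genes. The contrasts were the FVF- change, the FVF- change minus the FVF+ change, and E14.5 minus E13.5 in FVF-. The scripts were tested on simulated data. No filter on dim genes was used; an alternative kept genes above 8.77 in a group mean, the overall median. Alternatives were also other scalings, arrays, probe set rules, variance models and thresholds, and each array left out.

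Named were the 15 largest rises and 15 largest falls with no overlap of arrays, up to 5 called members each way and 3 uncalled members of each of 37 lists, all members of lists of 12 or fewer, the 8 largest differences between sorts each way, and Foxa2. Other genes named were chosen after their values were seen. The comparison, its members and the lists were chosen with earlier results of these data known, so lists are described by counts, with no test. The counts are to be read beside the 10.7% of all genes that rose and the 9.7% that fell. Promoters and motif shares come from RefSeq on GRCm38.p6; no genome sequence was used here.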

Additional observations from a re-analysis of the deposited data

Results flagged for a closer look

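For 126 of the genes named in the report the E15.5 minus E12.5 change differed between the sorts (limma adjusted p under 0.05 for the FVF- change minus the FVF+ change). Each value in parentheses is that difference in log2 units. It was positive for 87 genes and negative for 39. Over all genes the change was called more positive in FVF- for 8.83% and more negative for 10.8%. The named genes were chosen partly by the size of the FVF- change and of this difference, so their split does not describe all genes.

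The group of 49 genes rose in FVF- cells and was not called in FVF+ cells. Its secreted and matrix genes were Serpina6 (4.20), Aspn (3.77), Ogn (3.71), Igfbp7 (3.43), Itih5 (3.36), Thbs2 (3.24), Dpt (2.86), Pi15 (2.73), Efemp1 (2.06), Col4a2 (1.24), Col12a1 (1.12), Col4a1 (1.11) and Mmp23 (1.0). Its blood cell and defence genes were Ngp (2.61), Cd74 (2.54), Cxcl13 (2.16), Cpa3 (2.07), Tpsb2 (1.77), H2-Aa (1.74), S100a8 (1.73), H2-Ab1 (1.69), C1s1 (1.65), Colec12 (1.54), Tyrobp (1.40), Cd55 (1.37), Ccl9 (1.26), Ccl11 (1.23), Ccr1 (1.20), Il7r (1.04), Ccr2 (1.01) and Slc25a37 (0.64). Epithelial members were Clps (3.53), Cdh1 (1.69) and Krt8 (1.11). Mesothelial members were Gpm6a (1.59), Lrrn4 (1.45) and Aldh1a2 (1.27). Signalling genes were Bmp2 (1.23), Fgf10 (0.97), Wnt2b (0.90), Dll4 (0.87), Tgfbr2 (0.83) and Fgf2 (0.64). The rest were Cd36 (2.01), Stmn2 (1.05), Smtn (0.86), Prph (0.83), Ptgs2 (0.73) and Magel2 (0.67).

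Another 19 genes rose in both sorts, by more log2 units in FVF-. They were Pnliprp1 (4.47), Ctrb1 (4.20), Agtr2 (3.90), Mfap5 (2.35), Matn2 (2.28), Lum (1.79), Osr2 (1.71), Mgp (1.64), Alas2 (1.62), Eln (1.49), Hdc (1.42), Lyve1 (1.38), Igfbp6 (1.09), Col6a2 (1.03), P4ha2 (1.02), Heyl (1.0), Col6a1 (0.93), Cspg4 (0.71) and Gdf10 (0.60). In 6 genes a rise in FVF- stood against a fall in FVF+: Adamts5 (3.77), Sfrp2 (1.91), Igfbp2 (1.47), Notch1 (1.35), Gata6 (1.24) and Klf3 (0.97). A fall in FVF+ with no call in FVF- was found for 10 genes: Hmgn5 (3.73), Igfbp5 (2.44), Igfbp4 (2.00), Mfap2 (1.33), Jag1 (1.06), Sox9 (1.05), Cdkn1c (1.04), Mest (0.83), Notch2 (0.72) and Igf2 (0.51). Sox11 (1.57) and Meis1 (0.53) fell in both sorts, by less in FVF-, and Pdx1 (1.31) was called in neither.

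Among the negative differences 19 genes fell in FVF- cells and were not called in FVF+. They were Hsd3b6 (-3.03), Hba-x (-2.07), Hbb-bh1 (-1.99), Mcoln3 (-1.97), Klk13 (-1.88), Tac2 (-1.83), Syt6 (-1.80), Lef1 (-1.79), Bves (-1.77), Elovl7 (-1.76), Rdh10 (-1.24), Scube1 (-1.18), Tbx3 (-1.10), Hoxb4 (-1.08), Gap43 (-1.06), Stra6 (-1.0), Meis2 (-0.83), Hoxa3 (-0.79) and Dbh (-0.66). Fgfr2 (-1.61), Hmga2 (-1.26) and Bcl11a (-1.01) fell in both sorts, by more in FVF-. Nnat (-2.22) and Ret (-2.26) fell in FVF- and rose in FVF+. A rise in FVF+ with no call in FVF- was found for 7 genes: Sst (-4.60), Slc30a8 (-3.30), Aqp8 (-3.22), Clca3a1 (-3.08), Igf1 (-1.90), Chga (-1.47) and Cd3e (-0.95). Pdia2 (-3.97), Prss3 (-3.80), Cpb1 (-3.50), Rnase1 (-3.45), Ins2 (-2.24), Iapp (-1.68) and Car9 (-1.05) rose in both sorts, by less in FVF-. Fgfr1 (-0.43) was called in neither.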

How the results depend on the processing

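The comparison rests on 3 arrays against 2. With 1 FVF- array left out, 1995 to 3372 genes were called between E15.5 and E12.5, against 3945 with all: 1156 to 1867 rose and 834 to 1546 fell. The 2 lowest totals were those without E12.5 replicate 1 (1995) and replicate 2 (2043). With 1 FVF- or FVF+ array left out, the change differed between the sorts for 1818 to 3443 genes, against 3786: 892 to 1572 were more positive in FVF- and 926 to 1878 more negative, lowest without FVF- E12.5 replicate 2. Without FVF+ E12.5 replicate 1, chosen after seeing the data, 3839 genes were called in FVF- (2027 rose, 1812 fell), from the 5 FVF- arrays alone 4856 and from the FVF- arrays of all 4 days 3031. A single array left in a group was taken to vary like the other groups. With array weights 2912 genes rose and 2914 fell, and the sorts differed in 6009 genes (2561 more positive in FVF-, 3448 more negative). With a 2-fold minimum 641 genes were called (488 rose, 153 fell) and the sorts differed in 1101 (762 and 339); at an adjusted p under 0.01 the counts were 2241 (1274 and 967) and 1662 (878 and 784). The filter on dim genes left 2481 genes that differed between the sorts, 1089 of them more negative in FVF-, and cyclic loess left 1373 more negative; fewer genes were tested under the filter, and for the other settings the cause was not tested. Rises made up 52.5% of calls as deposited, 36.8% after median centring and 64.3% after cyclic loess, while the median of all genes moved by -0.082 and 0.015. With the replicate number as a block 4049 genes were called (2120 rose, 1929 fell), and 3425 differed between the sorts. The numbers were not taken as pairs. The deviations of same-numbered arrays of the 2 days correlated at -0.165 and -0.112. With 2 E12.5 arrays the deviations of 1 mirror those of the other, so these correlations cannot decide on pairing. No named gene reversed its called direction under any alternative run. Without E12.5 replicate 2, 30 of 163 named called genes were not called, and without replicate 1, 24 were not. The share of called genes with the same direction from E13.5 to E14.5 was 82.5%, 82.8% to 88.4% with an array left out, 81.0% after median centring, and 72.9% with a term for the 3 arrays coded by a letter in place of a number, all of E13.5. Probes near the lower end of the range, where signal is close to background, limit what could be detected.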
